A study of Mus musculus with 8 samples.

Results

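BAFF (gene symbol Tnfsf13b) and APRIL (Tnfsf13) are a pair of related cytokines that keep B cells and plasma cells alive. BAFF is made largely by myeloid and stromal cells and binds the receptors BAFF-R (Tnfrsf13c), TACI (Tnfrsf13b) and BCMA (Tnfrsf17), whereas APRIL binds TACI and BCMA only. BAFF-R supports the survival of mature B cells by displacing the adaptor TRAF3 (Traf3), which otherwise directs the kinase NIK (Map3k14) to degradation, so that NIK can start the non-canonical NF-κB pathway. Mice that overproduce BAFF develop a lupus-like disease, and BAFF is a drug target in human lupus. The members described here are these 6 genes, chosen by gene symbol, and all array probes annotated with one of the symbols were taken. Of the 6 genes, 4 had a probe, with 5 probes among 25697 on the array. Tnfsf13b had 2 probes, Tnfrsf13b, Tnfrsf13c and Tnfrsf17 had 1 each, and Tnfsf13 and Traf3 had 0 listed probes, so nothing is reported on the RNA of the APRIL gene itself or of TRAF3.

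The samples are spleens of B6D2F1J mice, F1 hybrids of C57BL/6 and DBA/2, aged 10 weeks, in a parent-into-F1 lupus model, where transferred donor cells respond to the hybrid recipient. RNA was taken 14 days after engraftment and measured on Illumina MouseRef-8 v2.0 BeadChips, which read labelled RNA bound to bead-mounted oligonucleotides as brightness. The donor was DBA for 4 spleen samples and B10.D2 for the other 4, the latter a strain of C57BL/10 background that carries the major histocompatibility haplotype of DBA/2, and both groups share the recipient strain, age, tissue and day. Spleens of mice that received no transfer were not analysed here, so the comparison is between donors only. The labels give neither the kind and number of cells transferred nor whether each replicate came from its own mouse. The p-values therefore rest on variation among these arrays, and part of it could be technical. In bulk spleen RNA, fewer cells of a type and less RNA per cell cannot be told apart.

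Between 12601 and 13320 probes were detected per array, and the test covered the 12950 probes that reached detection on 4 or more of the 8. The mature B cell list, which serves as a check of the tissue, had 8 tested markers, Cd79a and Ms4a1 among them, with a mean of 9.80 to 10.37 on the normalized log2 intensity scale over the 8 arrays. Among its other markers, Bank1 and Cd72 had no listed probe, and Pax5 did not pass the detection filter. The array of B10.D2 donor replicate 4 stood apart from the others of its group: its mean of 8.98 over 6 T cell markers lay below 9.45 to 9.52, its mean of 6.88 over 4 germinal centre markers below 7.97 to 8.15, and its mean of 7.93 over the pancreas and fat genes Cela1 and Lep above 6.68 to 6.85. Results that rest on this array are therefore also given without it. Of the pancreas and fat pair, Cela1 varied within the B10.D2 donor group (9.13 ± 1.17, SD, n = 4) and Lep was near even (4.99 ± 0.07). On replicate 4 the untested pancreas gene Amy2a5 read 10.09 and 7.49 on its 2 probes. On the other B10.D2 donor arrays it read 4.43 to 4.71. The untested fat gene Adipoq read 6.96, 5.38, 8.40 and 4.52 on the DBA donor arrays, and 4.42 to 4.52 with the B10.D2 donor.

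Over all 8 arrays, none of the 4 measured members differed between donors beyond the spread of the arrays. The test was limma, a linear model that draws the variance of each probe toward a value common to all probes. Of the 5 member probes, 0 had a Benjamini-Hochberg adjusted p under 0.05, the threshold used throughout. Among all tested probes 0.0695% passed (0.00772% lower and 0.0618% higher with the DBA donor). At an unadjusted p under 0.05 the count was also 0 of 5, against 14.5% of all tested probes. This count depended on B10.D2 donor replicate 4. Without that array, Tnfrsf13c (limma unadjusted p = 0.0137) and the second Tnfsf13b probe (limma unadjusted p = 0.00787) were under that level. So were 2350 of the 12950 tested probes. Array weights gave these member probes limma unadjusted p = 0.0467 and 0.0415, with 2585 of the 12950 under that level. With all 8 arrays, the donor groups overlapped on all 5 probes, while they did not overlap for 8.37% of tested probes (4.22% lower and 4.15% higher with the DBA donor). The difference was negative for 4 of the 5 member probes and for 51% of all tested probes.

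**Figure D1:**
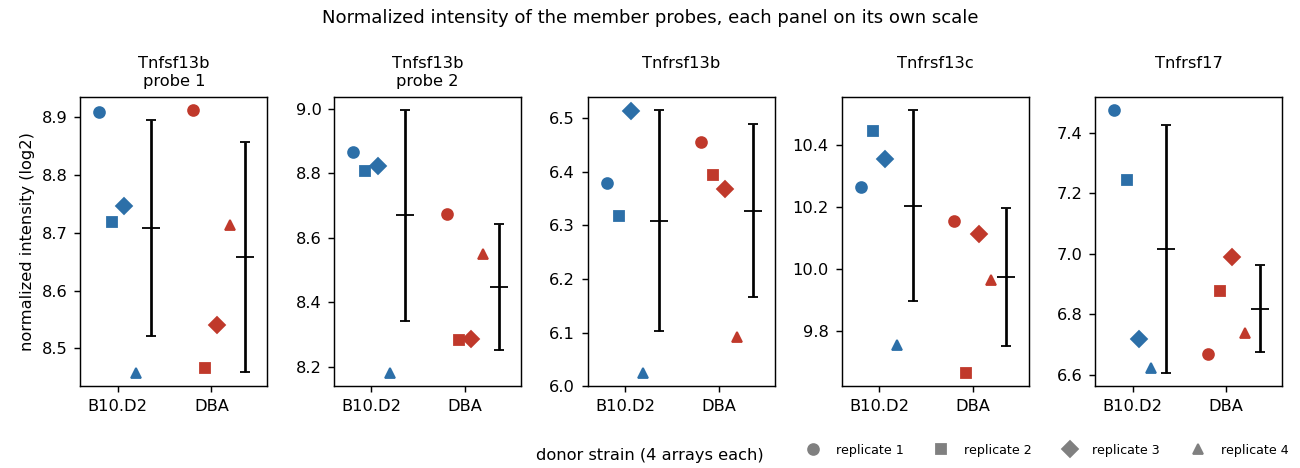
Normalized log2 intensity (vertical axis, a separate scale in each panel) of the 5 member probes on the 4 B10.D2 donor arrays (blue) and 4 DBA donor arrays (red), with marker shape giving the replicate and the bar the mean with its SD. The groups overlap in every panel, and B10.D2 donor replicate 4 is the lowest array of its group in all 5.

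The ligand BAFF was measured by 2 probes of Tnfsf13b, both detected on all 8 arrays. On the brighter probe the B10.D2 donor arrays read 8.91, 8.72, 8.75 and 8.46 for replicates 1 to 4, and the DBA donor arrays read 8.91, 8.47, 8.54 and 8.71. Both groups thus covered almost the same range, with replicate 1 the highest in each. The log2 difference, DBA donor minus B10.D2 donor, was -0.05 (SE 0.13, 95% confidence interval -0.33 to 0.23; group means 8.66 ± 0.20 and 8.71 ± 0.19, SD, n = 4; limma adjusted p = 0.895). As a ratio of B10.D2 donor to DBA donor, this interval runs from 0.852 to 1.26. Of all tested probes, 39.6% had a difference at or below it. The sign turned on single arrays: leaving out B10.D2 donor replicate 1 gave 0.017, and leaving out DBA donor replicate 2 gave 0.014.

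The second Tnfsf13b probe gave a lower reading in DBA donor spleens that also did not pass. It read 8.87, 8.81, 8.82 and 8.18 on the B10.D2 donor arrays and 8.67, 8.28, 8.29 and 8.55 on the DBA donor arrays. Replicates 1 to 3 of the B10.D2 donor group lay above all 4 DBA donor arrays, and replicate 4 lay below all of them. The log2 difference was -0.22 (SE 0.16, 95% confidence interval -0.58 to 0.14, limma adjusted p = 0.575). It was -0.38 when B10.D2 donor replicate 4 was left out (limma adjusted p = 0.162). The 2 probes therefore give differences of unequal size for the same gene, and neither passed with or without that array.

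APRIL could be approached only through a read-through gene. Tnfsfm13 joins the neighbouring genes Tnfsf12 (TWEAK) and Tnfsf13 and encodes a fusion ligand known as TWE-PRIL; it is no member and was looked up after the values were seen. Its probe was above background on 2 of 4 arrays with the DBA donor and 1 of 4 with the B10.D2 donor, too few for the test, and the Tnfsf12 probe was above background on 0 arrays of either group. These probes therefore give no level for APRIL.

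Among the receptors, Tnfrsf13c, which encodes BAFF-R on mature B cells, had the most negative difference of the 4 measured genes. It read 10.26, 10.44, 10.36 and 9.76 on the B10.D2 donor arrays and 10.15, 9.67, 10.11 and 9.97 on the DBA donor arrays. As with the second Tnfsf13b probe, replicates 1 to 3 of the B10.D2 donor group lay above every DBA donor array, and replicate 4 fell among the lowest readings. The log2 difference was -0.23 (SE 0.16, 95% confidence interval -0.59 to 0.13; group means 9.97 ± 0.22 and 10.20 ± 0.31, SD, n = 4; limma adjusted p = 0.552). Leaving out B10.D2 donor replicate 4 gave -0.38 (limma adjusted p = 0.184), and leaving out DBA donor replicate 2, the lowest array of all 8, gave -0.13 (limma adjusted p = 0.787). With both of these arrays left out it was -0.28 (limma adjusted p = 0.272), an alternative chosen after the data were seen. Of all tested probes, 10.1% had a difference at or below that of Tnfrsf13c.

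Tnfrsf13b, which encodes TACI, a receptor of marginal zone and activated B cells that in mice restrains B cell numbers, had group means that were almost the same. It read 6.38, 6.32, 6.51 and 6.02 on the B10.D2 donor arrays and 6.46, 6.39, 6.37 and 6.09 on the DBA donor arrays. Replicate 4 was the lowest in each group, and the other arrays interleaved. The log2 difference was 0.02 (SE 0.12, 95% confidence interval -0.26 to 0.29; group means 6.33 ± 0.16 and 6.31 ± 0.21, SD, n = 4; limma adjusted p = 0.964). Its sign is not fixed: leaving out B10.D2 donor replicate 4 gave -0.076, leaving out DBA donor replicate 1 gave -0.024, and array weights gave -0.040. On the dim probes of Tnfrsf13b and Tnfrsf17 the offset added in the background correction shrinks differences, so the intervals describe this scale.

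Tnfrsf17, which encodes BCMA, a receptor of plasma cells that sustains the long-lived ones in bone marrow, varied more within the B10.D2 donor group than between the donors. It read 7.48, 7.24, 6.72 and 6.62 on the B10.D2 donor arrays and 6.67, 6.88, 6.99 and 6.74 on the DBA donor arrays. Replicates 1 and 2 of the B10.D2 donor group stood above all other arrays, and replicate 4 of that group was the lowest of all 8. The log2 difference was -0.20 (SE 0.18, 95% confidence interval -0.60 to 0.20; group means 6.82 ± 0.14 and 7.01 ± 0.41, SD, n = 4; limma adjusted p = 0.661). It was -0.044 when B10.D2 donor replicate 1 was left out and -0.33 when replicate 4 of that group was.

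Before normalization the same 5 probes gave a different picture. The intensity of Tnfrsf13c was 1354, 1887, 1479 and 1161 on the B10.D2 donor arrays against 1001, 873.2, 921.1 and 1020 on the DBA donor arrays, and that of the brighter Tnfsf13b probe was 530.8 to 656.4 against 363.1 to 482.7. On all 5 member probes every DBA donor array lay below every B10.D2 donor array. The same held for 44.4% of all tested probes, while 0.0386% were separated the other way, and the median intensity over all probes was 118.9 ± 5.39 with the DBA donor and 133.3 ± 6.84 with the B10.D2 donor (SD, n = 4). The separation of the members before normalization is therefore read together with this overall brightness difference. In the table of values processed by the authors, the donor groups overlapped on all 5 probes.

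**Figure D2:**
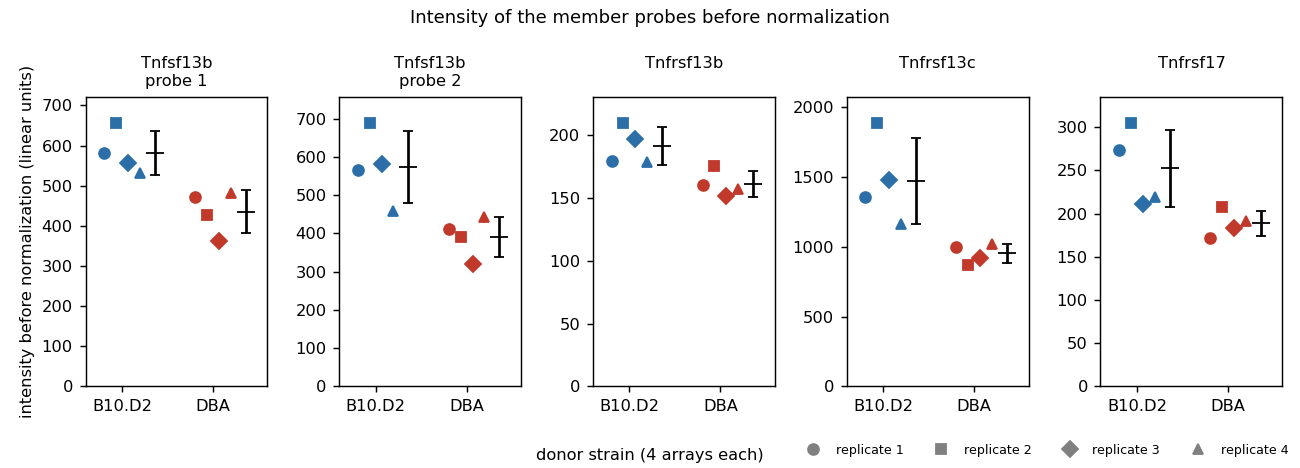
Intensity before normalization (linear units, vertical axes start at 0) of the 5 member probes on the 4 B10.D2 donor arrays (blue) and 4 DBA donor arrays (red), with marker shape giving the replicate and the bar the mean with its SD. Every DBA donor array lies below every B10.D2 donor array in each panel, as it does for 44.4% of all tested probes.

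The receptors were next set beside markers of the cells that carry them, array by array. The 8 mature B cell markers had lower values in DBA donor spleens in 8 of 8 genes, each by its brightest probe. Differences on their other probes ran from -0.44 to 0.14. The marker mean per array was 10.31, 10.37, 10.37 and 9.97 for the B10.D2 donor and 10.26, 9.80, 9.97 and 10.17 for the DBA donor. None of the markers passed the test. Cd79a, a chain of the B cell receptor complex, had the smallest p of them (log2 difference -0.37, limma adjusted p = 0.220). The lowest arrays of both the marker mean and Tnfrsf13c were DBA donor replicate 2 and B10.D2 donor replicate 4. After subtraction of the marker mean on each array, the difference of Tnfrsf13c between donors was -0.02 (exact two-sided permutation p = 0.800). For Tnfrsf13b the corresponding difference was 0.22 (exact two-sided permutation p = 0.229), or 0.34 when DBA donor replicate 4 was left out (exact permutation p = 0.0286, the smallest that 3 against 4 arrays can give). With all 8 arrays, neither receptor gene differed between donors relative to the B cell markers beyond the spread, and for Tnfrsf13c the difference relative to the markers was smaller than the difference without them.

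Tnfrsf17 was set beside the plasma cell markers in the same way. The 6 tested plasma cell markers had higher values in DBA donor spleens for 6 of 6 genes, with a median log2 difference of 0.67 and none past the test. Much of that size came with B10.D2 donor replicate 4: leaving it out kept 6 of 6 genes higher, with a median of 0.31. Creld2, an endoplasmic reticulum protein, differed by 0.82 (limma adjusted p = 0.244) and Xbp1, which drives the secretory programme of plasma cells, by 0.52 (limma adjusted p = 0.315). Leaving out that array gave 0.51 for Creld2 and 0.30 for Xbp1 (limma adjusted p = 0.205 and 0.337). Of the list, Prdm1 and Jchain did not pass the detection filter. The marker mean was 10.01, 9.36, 9.32 and 8.34 on the B10.D2 donor arrays and 10.00, 9.80, 10.03 and 9.60 on the DBA donor arrays. The marker mean was thus even across the DBA donor arrays and spread widely across the B10.D2 donor arrays, and within the B10.D2 donor group the 4 arrays ranked alike by Tnfrsf17 and by the marker mean.

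Relative to the plasma cell marker mean of the same array, Tnfrsf17 was lower in every DBA donor spleen than in every B10.D2 donor spleen. Tnfrsf17 minus the marker mean was -2.54, -2.12, -2.60 and -1.72 for the B10.D2 donor and -3.33, -2.92, -3.04 and -2.86 for the DBA donor; only the comparison between arrays has a meaning, since brightness is not comparable between probes. The difference between donors was -0.79 (group means -3.04 ± 0.21 and -2.24 ± 0.41, SD, n = 4; exact two-sided permutation p = 0.0286, the smallest that 4 against 4 arrays can give). Adjusted over the 4 such comparisons made, p was 0.114, so it did not pass that correction. Without B10.D2 donor replicate 4, whose marker mean was the lowest, the difference was -0.62 (exact permutation p = 0.0286), and over all single arrays left out it ran from -0.91 to -0.62. The exact permutation p was 0.0571 without DBA donor replicate 1 (-0.70) or replicate 3 (-0.79). With all 8 arrays, Tnfrsf17 itself differed by -0.20 (limma adjusted p = 0.661), and the marker mean by 0.60 in the opposite direction. Subtracting this marker mean moves the difference of any gene by the same amount toward lower values with the DBA donor. The share of all tested probes separated after that subtraction was not computed, so the separation cannot be called particular to Tnfrsf17. Within the B10.D2 donor group, Tnfrsf17 minus the marker mean was highest on replicate 4, where the marker mean was lowest. The Tnfrsf17 probe is dim, and the offset shrinks its differences. The RNA of Tnfrsf17 per plasma cell was not tested.

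Tnfsf13b was set beside markers of monocytes and macrophages, a main source of BAFF. Only 4 of the 8 listed markers were tested, since Csf1r and Cd68 had no listed probe and Itgam and Cybb did not pass the detection filter. The marker mean was 8.91 to 9.17 on the B10.D2 donor arrays and 8.90 to 9.13 on the DBA donor arrays, and the macrophage receptor Adgre1 differed by 0.13 and the endotoxin co-receptor Cd14 by -0.07 (limma adjusted p = 0.654 and 0.830). Relative to this mean the difference of the brighter Tnfsf13b probe between donors was -0.06 (exact two-sided permutation p = 0.629). With each gene averaged over its probes it was -0.16 (exact two-sided permutation p = 0.371). BAFF is also induced by interferons, and the lists of interferon-induced genes had medians of -0.15 (7 tested type I genes) and 0.07 (6 tested interferon-gamma genes), with 0 genes past the test in either. Leaving out B10.D2 donor replicate 4 turned the type I median to 0.058.

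**Figure D3:**
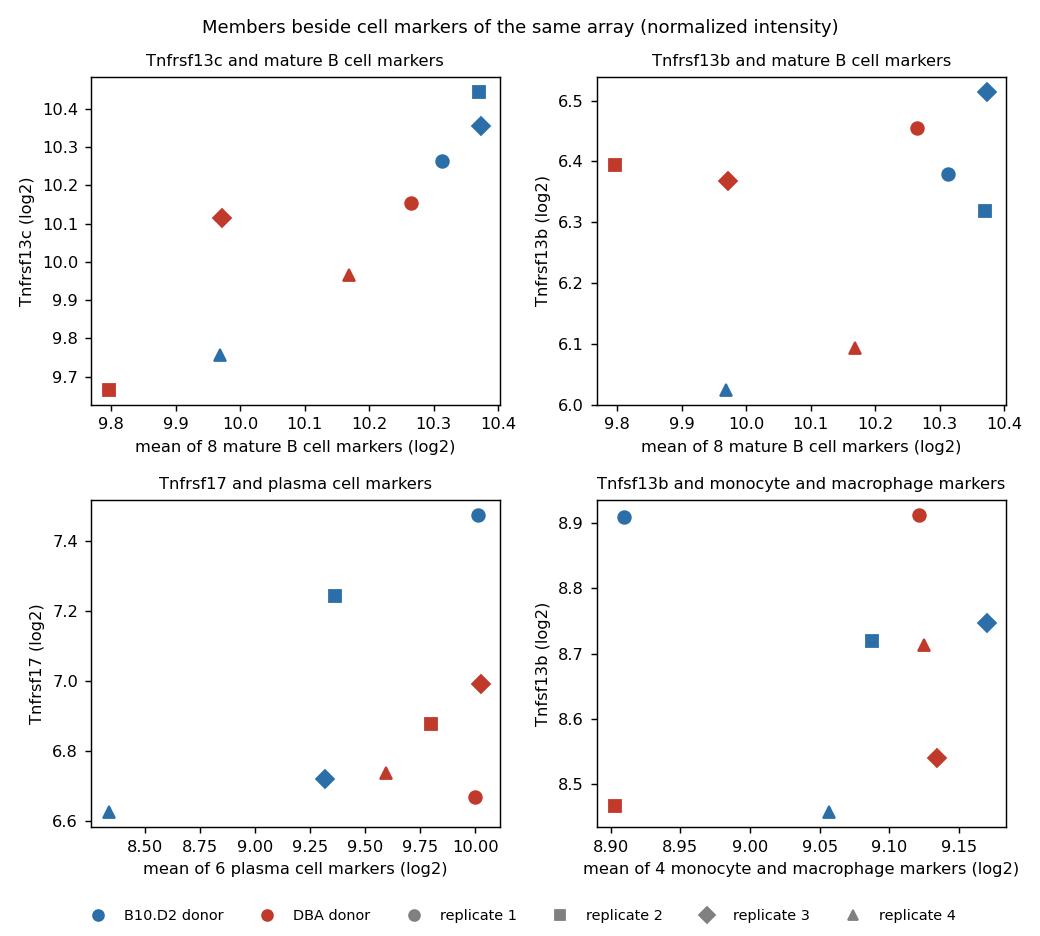
Normalized log2 intensity of 4 members (vertical axes) against the mean normalized log2 intensity of markers of the cells known to carry or make them (horizontal axes), 1 point per array, blue for the B10.D2 donor, red for the DBA donor and marker shape for the replicate. Tnfrsf13c and the mean of the 8 mature B cell markers are both lowest on DBA donor replicate 2 and B10.D2 donor replicate 4. They part on DBA donor replicate 3 (marker mean 9.97, Tnfrsf13c 10.11) and replicate 4 (marker mean 10.17, Tnfrsf13c 9.97). For Tnfrsf17 the 4 DBA donor arrays have plasma cell marker means of 9.60 to 10.03 with Tnfrsf17 at 6.67 to 6.99.

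Genes that act around the receptors had mostly lower values in DBA donor spleens, and none passed the test. Over 5 lists, of NF-κB signalling, survival, ligand and receptor handling, and other receptors and ligands that use TRAF proteins, 42 of 53 genes were tested, 35 had negative and 7 positive differences, and the median was -0.12, where the median over all 9028 tested genes was -0.02 and 54.0% of them were negative. At an unadjusted p under 0.05 there were 7 lower and 0 higher genes of the 42, where 7.4% of all tested probes were lower at that level and 7.09% were higher. Leaving out B10.D2 donor replicate 4 gave 12 lower and 0 higher genes of the 42. That omission also raised the count of lower probes among all 12950 tested, from 958 to 1269. With 75th percentile scaling 30 of the 42 differences were negative, and the median over all tested probes moved from -0.0045 to 0.049. The smallest adjusted p of the 42 was 0.201. The donor groups did not overlap for 3 lower genes (Otud7b, Traf5 and Psen2) and 3 higher genes (Rela, Sdc4 and Mtor) of the 42, where the shares over all tested probes were 4.22% and 4.15%. Without background correction smaller differences were found, for example -0.17 for Traf5, -0.25 for Lta and -0.16 for Otud7b. Genes of a list are not independent of each other, and several lists of cell type markers also leaned negative with none past the test. By the brightest probe of each gene, 8 of 8 mature B cell, 5 of 6 T cell, 7 of 10 stromal and 3 of 3 dendritic cell markers were negative. The 5 tested erythroid markers were negative except Hba-a1, which read 14.64 in both groups with an SD of 0. Not all lists leaned this way: the 6 tested plasma cell markers were all positive, and of the 4 monocyte and macrophage markers 2 were positive and 2 negative. The 4 germinal centre markers had positive differences, but only 1 of 4 did when B10.D2 donor replicate 4 was left out. The part of cell content in the pathway genes' values was not tested.

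In the non-canonical NF-κB list, the branch that TRAF3 holds in check, all 7 tested genes had negative differences on their brightest probe. The median was -0.28, and 0 of 7 passed the test. Other probes of Birc2 gave 0.09 and -0.06. NIK (Map3k14), the kinase that TRAF3 directs to degradation, read 8.46, 8.36, 8.40 and 8.26 on the B10.D2 donor arrays and 8.27, 7.71, 8.05 and 8.14 on the DBA donor arrays, so that only DBA donor replicate 1 reached into the range of the other group. Its log2 difference was -0.32 (SE 0.12, limma adjusted p = 0.269). Otud7b, a deubiquitinase that in mice stabilises TRAF3, read 6.85 to 7.04 with the B10.D2 donor and 6.49 to 6.79 with the DBA donor, without overlap (log2 difference -0.30, SE 0.10, limma adjusted p = 0.231). Relb, the NF-κB subunit that this branch releases, differed by -0.28 (SE 0.13, limma adjusted p = 0.349). The remaining tested members, Traf2, Birc2, Birc3 and Nfkb2, ranged from -0.29 to -0.05. Over the alternatives the median of the list stayed negative, from -0.31 without DBA donor replicate 4 to -0.087 without background correction.

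The canonical NF-κB list was split, with 4 positive and 7 negative differences among 11 tested genes, a median of -0.10 and 0 past the test. Over the alternatives this median ran from -0.15 without DBA donor replicate 4 to -0.0087 with 75th percentile scaling. Traf5, an adaptor of several receptors of the tumour necrosis factor family, had the smallest p of all pathway genes: it read 6.06 to 6.46 with the B10.D2 donor and 5.78 to 6.06 with the DBA donor, with the groups just apart (log2 difference -0.40, SE 0.11, limma adjusted p = 0.201). The subunit gene Rela differed by 0.15 (limma adjusted p = 0.422) and the inhibitor gene Nfkbie by -0.23 (limma adjusted p = 0.432), while a second probe of Nfkbie gave 0.12.

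Other receptors and ligands that signal through TRAF proteins showed the same sign. On their brightest probes, all 7 tested genes of that list had negative differences. Differences on other probes of these genes ran from -0.22 to 0.04. The list had a median of -0.31 and 0 past the test. This median ran from -0.36 without DBA donor replicate 4 to -0.15 without B10.D2 donor replicate 2. The lymphotoxin genes Lta and Ltb, whose products organise lymphoid tissue, differed by -0.45 (SE 0.13, limma adjusted p = 0.206; -0.22 on a second probe) and by -0.35 (SE 0.14, limma adjusted p = 0.288). Tnfrsf4, which encodes the T cell costimulator OX40, differed by -0.43 (SE 0.20, limma adjusted p = 0.351). Cd40, the main costimulatory receptor of B cells that shares TRAF3 with BAFF-R, was looked up for this role outside the naming rule, with its values in view, and differed by -0.08, or by -0.10 to -0.02 on its 3 other probes.

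The last lists hold genes that process the ligands and receptors, and survival genes. Among 9 tested handling genes, which include the protease gene Furin that releases BAFF from the cell surface and γ-secretase subunits that shed BCMA, 8 had negative differences, with a median of -0.08 (-0.17 to -0.032 over the alternatives) and 0 past the test. Sdc2 and Sdc4 encode heparan sulphate proteoglycans, a class of molecules that binds APRIL, and differed by -0.30 and 0.19 (limma adjusted p = 0.232 and 0.386). Psen2, a γ-secretase subunit, differed by -0.27 (limma adjusted p = 0.271). Among 8 tested survival and target genes the median was -0.09 (-0.12 to -0.0014 over the alternatives) with 0 past the test. The anti-apoptotic genes Mcl1 and Bcl2 differed by -0.10 and -0.16 and the growth kinase gene Mtor by 0.12 (limma adjusted p = 0.606, 0.636 and 0.514). Other tested probes of Bcl2 gave -0.29 to -0.11.

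**Figure D4:**
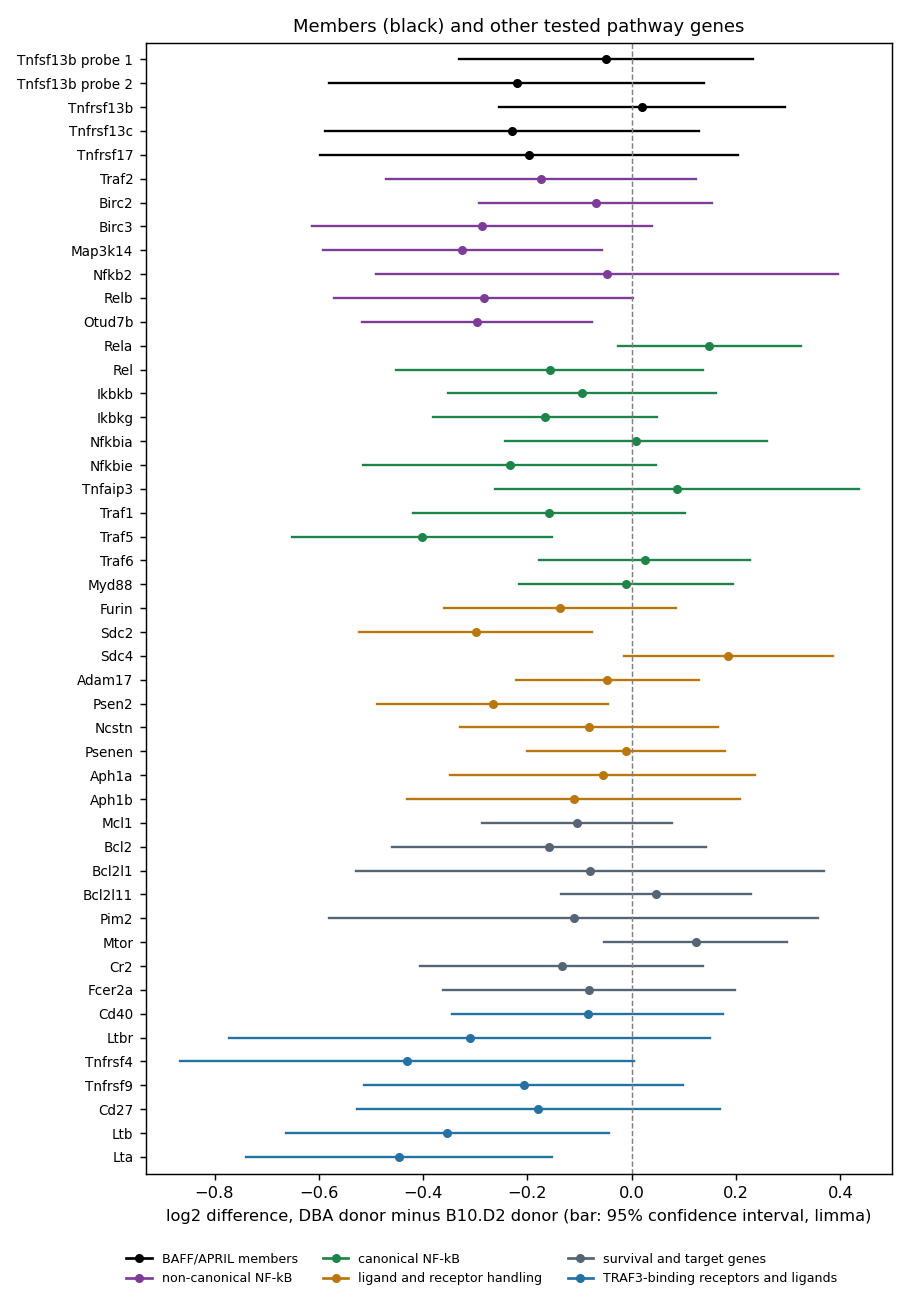
Log2 difference between donors (DBA donor minus B10.D2 donor, horizontal axis) with its 95% confidence interval from limma, for the 5 member probes (black) and the 42 tested genes of 5 pathway lists (colours). The intervals of all 5 member probes include 0, 35 of the 42 other genes lie to the left of 0, and no gene passed the adjusted test.

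The genes whose values ran most like each member over the 8 arrays were sought among 9027 other tested genes, each by its brightest probe. With so many genes and 8 arrays a high correlation is found for almost any pattern, so these are descriptions with no test. Tnfrsf13c was closest to Sh3bgrl3 (Pearson r = 0.978, Spearman rho = 0.994), Myl12b and Prkacb. Tnfsf13b was closest to Dhrs1 (Pearson r = 0.982, Spearman rho = 0.976), Rras2 and Prr5. Tnfrsf13b was closest to Nt5c3b (Pearson r = 0.968, Spearman rho = 0.976), Tmem150a and Vim, and Tnfrsf17 to Apcdd1 (Pearson r = 0.971, Spearman rho = 0.952), Cutc and Atp6v1h. None of these 12 genes passed the donor comparison, and no gene was shared between the 4 members.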

How the data were processed

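Spleen RNA of 8 samples, 4 per donor strain and grouped by the donor in the sample titles, was measured on 1 array each. Per the file headers, the deposited non-normalized table holds the mean bead intensity and a detection p-value per probe and array. The submitters' processing notes name GenomeStudio; its version was not given in the sources used here, nor were the steps behind a second deposited table of processed intensity values. Intensities were corrected by normexp with the background inferred from the detection p-values (offset 16), quantile-normalized and put on a log2 scale (neqc, limma 3.58.1, R 4.3.3). The platform annotation paired 23978 of 25697 probes with a single symbol and 0 with several, leaving 1719 without a name. Entrez numbers linked 23962 probes to the GRCm38.p6 gene table, and 0 symbols changed. Tests covered probes detected (p under 0.05) on 4 or more arrays with lmFit and eBayes (two-sided, Benjamini-Hochberg over 12950 probes), after the script was tested on simulated data. A gene is represented by its brightest tested probe. Single per-array values were compared by exact permutation over the 70 arrangements. Named genes were all member probes, the 3 pathway genes per list and up to 2 markers per list with the smallest p, and the 3 most correlated genes per member. Alternatives changed the background correction, scaling, filter, probe rule, variance model, replicate block and arrays included. The members and lists were chosen with earlier results of these data known. The number of arrays limits the precision. Figures were drawn with matplotlib 3.10.9.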

Additional observations from a re-analysis of the deposited data

Results flagged for a closer look

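For 6 of 52 sets of 4 values from the same donor group, the lowest or highest array lay far from its neighbours, measured by its gap to the nearest array as a share of the group's range; chance does this in about 1 in 20 sets, or 2.6 here. B10.D2 donor replicate 4 accounted for 5 of them. It was lowest on the second Tnfsf13b probe (8.18 against 8.81 to 8.87, share 0.915) and for the means of the mature B cell markers (9.97 against 10.31 to 10.37, share 0.851), germinal centre markers (6.88 against 7.97 to 8.15, share 0.852) and T cell markers (8.98 against 9.45 to 9.52, share 0.880), and highest for the pancreas and fat genes Cela1 and Lep, averaged (7.93 against 6.68 to 6.85, share 0.866). Lep was near even in the B10.D2 donor group (4.99 ± 0.07, SD, n = 4), so the mean of that pair followed Cela1. DBA donor replicate 2 was lowest for the mean of the monocyte and macrophage markers (8.90 against 9.12 to 9.13, share 0.944). The part of these arrays' cell content in the members' values was not tested.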

How the results depend on the processing

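No member and no gene of the 5 pathway lists passed under any of the 19 alternatives run. The differences of Tnfrsf13c (-0.38 to -0.13), Tnfrsf17 (-0.35 to -0.044) and the second Tnfsf13b probe (-0.38 to -0.15) kept their sign. Tnfrsf13b turned to -0.040 with array weights and -0.098 with B10.D2 donor replicate 4 and also DBA donor replicate 2 left out (chosen after seeing the data), and ran from -0.076 to 0.097 with single arrays left out. Over the same omissions the Tnfsf13b difference ran from -0.13 to 0.017, Tnfrsf13c relative to mature B cell markers from -0.097 to 0.018, and Tnfsf13b relative to monocyte and macrophage markers from -0.15 to 0.051. Tnfrsf13b relative to mature B cell markers ran from 0.12 to 0.34 (exact permutation p = 0.0286 at the upper end, without DBA donor replicate 4). Tnfrsf17 relative to plasma cell markers ran from -0.91 to -0.62, was -0.58 with no background correction and -0.66 with that pair of arrays left out (exact permutation p = 0.1, the smallest that 3 against 3 arrays can give). The count of 9 of 12950 probes passed was 18 with 75th percentile scaling, 38 with array weights, 0 with no filter on dim probes (limma, 2759 at an unadjusted p under 0.05) and 0 to 9 with single arrays left out (0 when the omitted array was replicate 2 of the B10.D2 donor, or replicate 3 or 4 of the DBA donor, where 1278, 1230 and 1997 had an unadjusted p under 0.05); the cause was not tested. Same-numbered arrays of the groups had deviations that correlated at -0.35 to 0.34. These values cannot decide whether the numbers pair the arrays, and the labels do not say. With the replicate block 7 probes passed, and Tnfrsf17 relative to plasma cell markers was -0.79 (exact sign-flip permutation p = 0.125, the smallest possible). The differences for Tnfsf13 and Traf3 were not run, as neither had a listed probe. For dim probes the signal over background limits what could be detected.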

Other observations

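The pro-apoptotic gene Bcl2l11 (BIM), which BAFF signalling holds down in B cells, had 3 tested probes that disagreed; it was singled out after its values were seen. The brightest probe differed by 0.05 and a second by -0.12, whereas another, dim probe read higher on the DBA donor arrays. That probe read 5.56, 5.01, 4.84 and 4.84 on the B10.D2 donor arrays and 5.95, 6.12, 6.12 and 5.81 on the DBA donor arrays. It was above background on 4 of 4 arrays with the DBA donor and 2 of 4 with the B10.D2 donor, so it entered the test through the group in which it is high, and it did not pass. The other B10.D2 donor readings are not well above background, and no fold is given. The probe sequences were not used here, so whether the probes read different transcripts was not tested.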
